A study of Mus musculus with 6 samples.

Results

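The neutrophil granule genes examined here are Mpo, Elane, Prtn3, Ctsg, Camp, Chil3, Ltf, Ngp, S100a8 and S100a9, chosen by gene symbol. They are 10 of the 16593 genes with a named probe on the array and have 15 of its 25697 probes. The cells came from the marrow of C57Bl/6 mice and were sorted as L-S+K+, that is negative for lineage markers and positive for both Sca-1 and Kit, the phenotype of hematopoietic stem and early progenitor cells. VPA cultures held 1 mM valproic acid for 24 h, and control cultures received growth factors only, with 3 independent cultures and 1 array each. Serum, SCF and GM-CSF were present in both groups, so the controls too were exposed to a factor for granulocyte and macrophage growth. The age of the mice and whether marrow was pooled are not given in the sources used here.

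Neutrophils load their granules in a fixed order as they mature. At the promyelocyte stage the primary, or azurophil, granules are filled with myeloperoxidase (Mpo) and the serine proteases neutrophil elastase (Elane), proteinase 3 (Prtn3) and cathepsin G (Ctsg), which kill and digest microbes. At the later myelocyte stage come the specific granules, with lactoferrin (Ltf), the cathelicidin peptide (Camp) and the neutrophilic granule protein (Ngp). Chil3, a chitinase-like protein, and the calcium-binding pair S100a8 and S100a9, which fill the cytosol rather than a granule, belong to the same later programme. In granulocyte and macrophage progenitors the transcription factors PU.1 (Spi1), C/EBP alpha, RUNX1 and MYB switch on the primary genes, whereas C/EBP epsilon is needed for the specific granule genes. VPA, a drug against epilepsy, blocks histone deacetylases.

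The promoters of the primary class and of a pair of later genes are shown because they differ in the short motifs they hold. The windows run from 250 bases before to 50 after the RefSeq transcription start, on the gene's strand, in build GRCm38.p6. Capitals mark GAGGAA, the core letters bound by PU.1 and related factors, TTGCNNAA, letters of a C/EBP site, and TGTGGT, letters of a RUNX site, each searched on both strands. The windows are chr11:87793534-87793833 (plus strand) for Mpo, chr10:79886062-79886361 (plus) for Elane, chr10:79879417-79879716 (plus) for Prtn3, chr14:56102525-56102824 (minus) for Ctsg, chr9:111019042-111019341 (plus) for Ltf and chr9:110419558-110419857 (plus) for Ngp.
Mpo: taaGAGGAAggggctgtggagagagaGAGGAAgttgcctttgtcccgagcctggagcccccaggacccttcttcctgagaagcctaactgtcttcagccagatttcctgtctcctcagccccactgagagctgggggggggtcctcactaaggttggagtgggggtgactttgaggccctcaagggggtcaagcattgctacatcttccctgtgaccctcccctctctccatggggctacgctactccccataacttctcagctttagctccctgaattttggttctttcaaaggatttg
Elane: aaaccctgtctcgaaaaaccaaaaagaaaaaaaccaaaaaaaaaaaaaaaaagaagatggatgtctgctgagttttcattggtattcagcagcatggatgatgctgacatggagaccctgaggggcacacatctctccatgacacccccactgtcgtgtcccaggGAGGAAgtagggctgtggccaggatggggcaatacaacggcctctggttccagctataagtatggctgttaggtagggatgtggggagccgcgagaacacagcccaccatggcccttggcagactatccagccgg
Prtn3: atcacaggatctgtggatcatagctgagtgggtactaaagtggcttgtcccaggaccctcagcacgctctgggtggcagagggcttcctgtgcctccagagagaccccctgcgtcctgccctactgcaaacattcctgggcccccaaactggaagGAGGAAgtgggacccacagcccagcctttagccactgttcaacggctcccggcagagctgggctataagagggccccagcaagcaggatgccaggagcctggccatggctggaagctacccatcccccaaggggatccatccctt
Ctsg: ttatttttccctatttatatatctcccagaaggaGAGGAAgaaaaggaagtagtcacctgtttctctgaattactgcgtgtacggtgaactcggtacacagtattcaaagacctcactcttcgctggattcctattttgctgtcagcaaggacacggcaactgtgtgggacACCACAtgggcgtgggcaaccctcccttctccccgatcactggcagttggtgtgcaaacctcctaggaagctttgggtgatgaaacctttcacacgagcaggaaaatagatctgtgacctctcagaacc
Ltf: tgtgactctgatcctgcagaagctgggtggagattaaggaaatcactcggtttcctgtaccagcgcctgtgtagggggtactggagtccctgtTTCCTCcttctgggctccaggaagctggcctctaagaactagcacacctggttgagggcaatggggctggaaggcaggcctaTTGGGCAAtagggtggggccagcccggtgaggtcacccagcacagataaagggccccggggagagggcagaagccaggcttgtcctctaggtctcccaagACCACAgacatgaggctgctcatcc
Ngp: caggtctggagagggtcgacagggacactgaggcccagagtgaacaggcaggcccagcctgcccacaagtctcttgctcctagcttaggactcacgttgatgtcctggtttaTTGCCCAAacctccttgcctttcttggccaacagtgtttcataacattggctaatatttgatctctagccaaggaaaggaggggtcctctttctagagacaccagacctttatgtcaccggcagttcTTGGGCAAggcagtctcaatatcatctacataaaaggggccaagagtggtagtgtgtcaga

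All 4 primary promoters hold GAGGAA on the strand of the gene, beginning at positions -247 and -224 from the start in Mpo, -85 in Elane, -95 in Prtn3 and -216 in Ctsg. Of the 6 later promoters, those of Ltf and S100a8 hold it, on the opposite strand. Over all 32851 promoters of this length in the RefSeq table the share with GAGGAA is 28.3%. The C/EBP letters stand in 0 of the 4 primary windows and in those of Ltf, Ngp and S100a9 among the later genes, against 10.8% of all promoters. The RUNX letters stand in Ctsg, Ltf and S100a9, against 16.8%. None of the 3 motifs is in the Camp or Chil3 window. These are matches of letters in a short window and say nothing of binding. In the genome Prtn3 and Elane are direct neighbours on chromosome 10, and S100a8 and S100a9 on chromosome 3. Camp, Ngp and Ltf lie on chromosome 9, with 8 protein-coding genes between Camp and Ngp and 20 between Ngp and Ltf.

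Tested probes had a median raw signal of 456 to 647 on 5 of the arrays. VPA replicate 1 was dimmer, at 226, or 2.38 times the median of its undetected probes, against 4.01 to 4.92 times on the others, and values without it are given beside the main ones. The L-S+K+ label was checked on markers other than Sca-1 and Kit, which were not analysed here. Of 10 genes of stem and progenitor cells, Meis1, Gata2, Cd34, Cd48 and Flt3 were detected on 6 of 6 arrays, Hoxa9 on 4, Procr on 3, Mecom on 2, and Hlf and Slamf1 on 0. Genes of other lineages were mixed within their lists. Of lymphoid genes Cd79b was detected on 6 arrays, Cd79a and Ebf1 on 2, and Pax5 and Cd3e on 0. Of monocyte and macrophage genes Adgre1 and Lyz2 were detected on 6, Cd14 on 2, F13a1 on 1 and Ccr2 on 0. Pf4, Itga2b, Gp9 and Vwf of megakaryocytes were detected on 6 and Ppbp on 0. Itgam was detected on 0 arrays. Of 9 mature neutrophil genes on the array, Csf3r, Cxcr4 and Clec4d were detected on 6 arrays and Fpr2 and Stfa1 on 3. The others, Cxcr2, Retnlg, Stfa2 and Il1b, were undetected throughout.

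Signals are given as background-corrected, normalized log2 values, in which 1 unit is a factor of 2, and changes as VPA minus control with the standard error (SE) of the limma fit. All 10 genes were measured, through 13 of their 15 probes detected (p under 0.05 against negative controls) on 3 or more arrays. The remaining probes, one of Chil3 and one of Ltf, were detected on 0 of 3 VPA arrays and 1 of 3 control arrays. By limma 0 of the 13 probes passed an adjusted p of 0.05, where 3.35% of all 11115 tested probes did, 0.432% lower and 2.91% higher with VPA. By brightest probe, 0 of the 10 genes passed, against 3.73% of all genes. At an unadjusted p under 0.05, 8 of the 13 probes were lower, against 6.86% of all probes. By brightest probe 5 of the 10 genes were lower and 0 higher, against 5.59% lower and 11.5% higher among all 7967 measured genes. In the same 5 genes (Mpo, Prtn3, Camp, Chil3 and Ngp) the 3 VPA arrays lay below the 3 control arrays, a separation seen downward in 11.2% and upward in 16.7% of all genes. The estimated change was below 0 in 9 of the 10 genes, as in 52% of all genes. Members vary together between cultures, as shown further on, so these are not independent counts. Other settings of the limma fit passed single member probes. The brightest Chil3 probe passed with a normalization offset of 50 (-1.23, adjusted p = 0.0472), where 0.387% of all probes fell, and without control replicate 2 (-1.69, adjusted p = 0.0354), where 0.09% did. Both it and the dimmest Mpo probe passed with a trended, robust variance, where 0.36% fell. The same Mpo probe passed with the replicate number as a block (adjusted p = 0.0403), where 0.234% fell. Array weights passed 5 member probes lower and 2 higher, S100a8 and S100a9. With these weights 1854 of all 11115 probes (16.7%) fell and 1734 rose. In mixed cultures fewer cells of a type and less RNA per cell cannot be told apart.

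**Figure D1:**
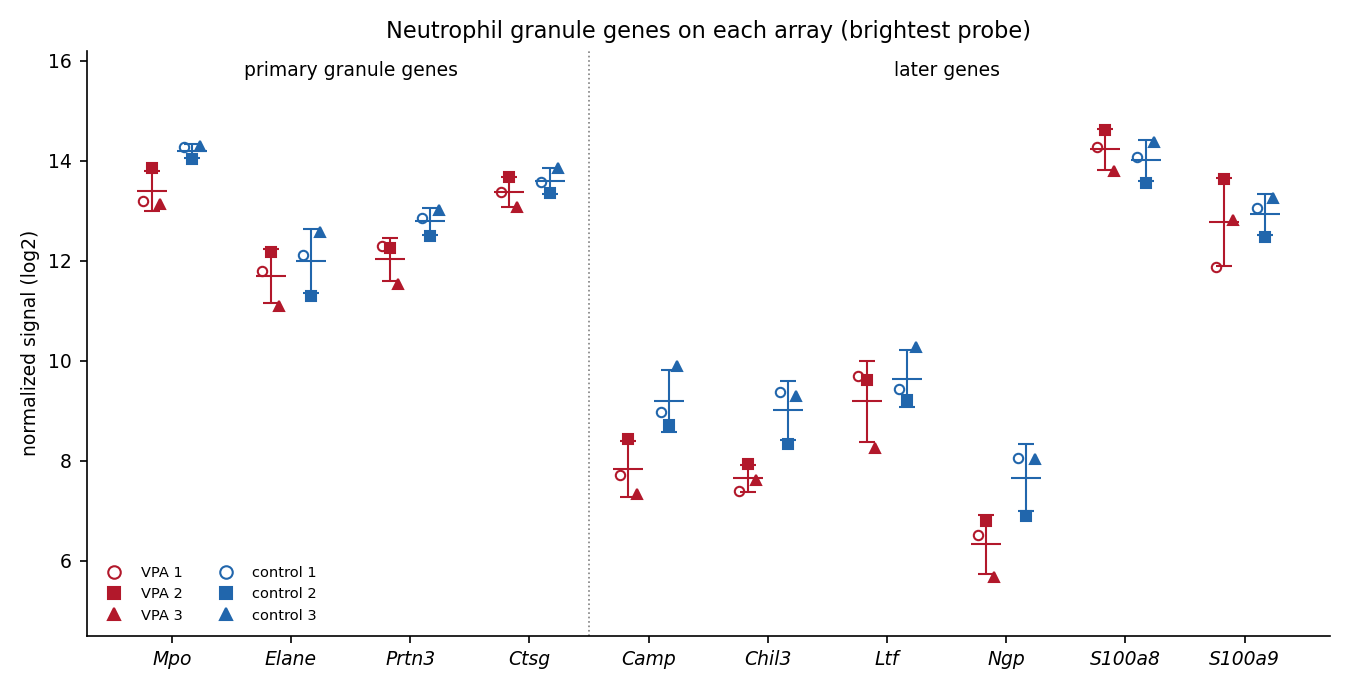
Normalized log2 signal (vertical axis) of the brightest probe of each gene, with 3 VPA arrays (red, left) and 3 control arrays (blue, right) per gene. Long ticks are means and error bars SD (n = 3). The groups are apart for Mpo, Prtn3, Camp, Chil3 and Ngp and overlap for Elane, Ctsg, Ltf, S100a8 and S100a9.

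Among the primary granule genes Mpo, the heme enzyme that makes hypochlorous acid, differed most. Its brightest probe read 13.19, 13.86 and 13.14 on VPA replicates 1, 2 and 3, against 14.27, 14.04 and 14.30 on control replicates 1, 2 and 3. Each VPA value was below each control value, and VPA replicate 2 came closest to the controls. The log2 change was -0.81 ± 0.22 (SE, n = 3 per group), 1.75-fold lower, with a 95% interval of -1.33 to -0.29 and an adjusted p of 0.120, so it did not pass. In raw intensity this probe read 5174, 14553 and 8314 on the VPA arrays, against 24766, 17440 and 24423 on the control arrays. On every array it was among the 270 brightest of 25697 probes. The second Mpo probe had a log2 change of -0.84 ± 0.26 (adjusted p = 0.161). The dimmest of the 3 Mpo probes read 8.27, 8.04 and 7.34 with VPA, against 9.98, 8.84 and 9.30 in control, and had the largest change, -1.49 ± 0.34 (adjusted p = 0.0703). All 3 probes thus had VPA arrays below control arrays, with sizes from 1.75-fold to 2.80-fold. Without VPA replicate 1 both dimmer probes passed, at -1.68 ± 0.34 (adjusted p = 0.0311) and -1.04 ± 0.23 (adjusted p = 0.0401), while the brightest was at -0.70 ± 0.22 (adjusted p = 0.0989). These were 2 of the 13 member probes, where 2.11% of all probes were called lower without that array.

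Prtn3, the protease that is the target of autoantibodies in human vasculitis, read 12.29, 12.26 and 11.53 on the VPA arrays, against 12.85, 12.49 and 13.01 on the control arrays. The groups did not overlap, by a margin of less than the spread within either. Its log2 change was -0.75 ± 0.25 (95% interval -1.34 to -0.17, adjusted p = 0.186), or -0.89 without VPA replicate 1 (adjusted p = 0.0751). Elane, its neighbour on the chromosome and the gene mutated in human cyclic neutropenia, read 11.80, 12.18 and 11.10 with VPA, against 12.12, 11.29 and 12.57 in control. VPA replicate 2 and control replicate 2 crossed, and both groups spanned more than 1 log2 unit. The change of Elane was -0.30 ± 0.38 (adjusted p = 0.707), with an interval of -1.19 to 0.59 that leaves room for a large fall and for a rise. Without VPA replicate 1 it was -0.36 (adjusted p = 0.643). Ctsg, a protease with chymotrypsin-like activity, had the smallest estimated change of the class. It read 13.38, 13.67 and 13.07 with VPA, against 13.57, 13.35 and 13.86 in control. Its change of -0.22 ± 0.21 (adjusted p = 0.622) had an interval of -0.72 to 0.28, and was also -0.22 without VPA replicate 1. A fall of Ctsg as large as that estimated for Mpo or Prtn3 is outside this interval. Over the 4 primary genes the median log2 change was -0.53, beside -0.02 over all measured genes.

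**Figure D2:**
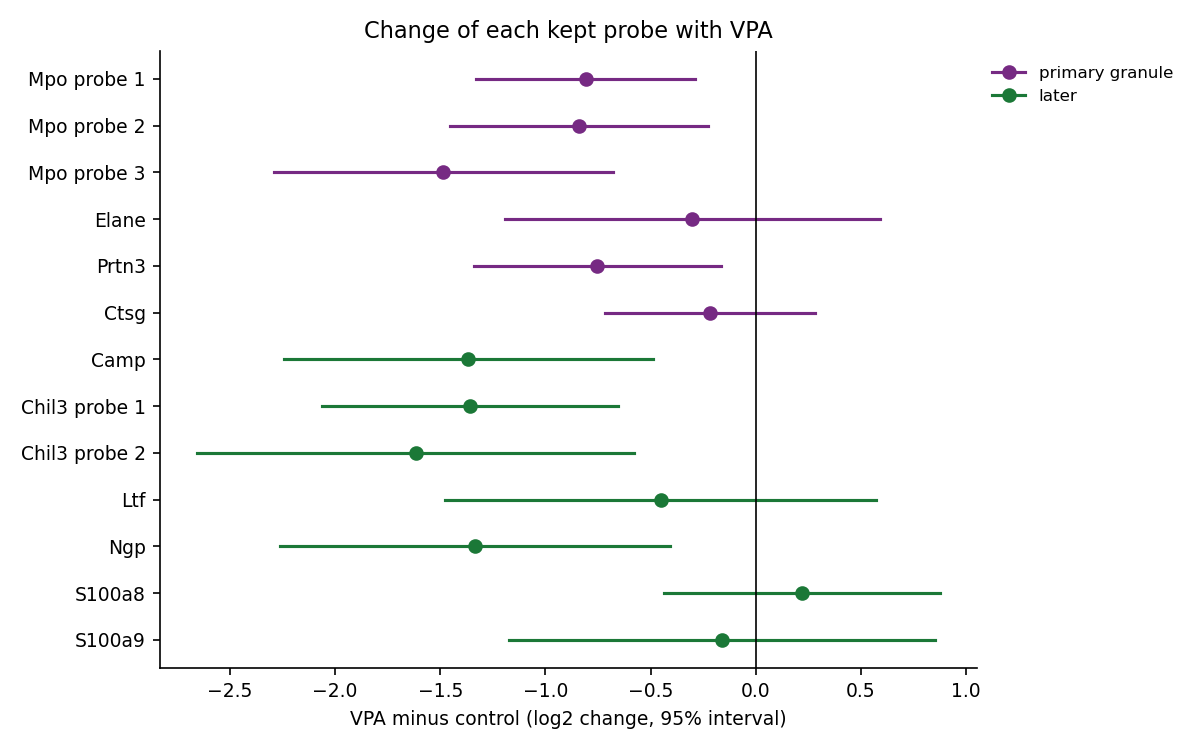
Log2 change, VPA minus control (horizontal axis), of each of the 13 tested probes, with its 95% interval from the limma fit. Primary granule genes are purple and later genes green, and probes of a gene are numbered from the brightest. The intervals of Mpo, Prtn3, Camp, Chil3 and Ngp lie below 0 before adjustment for multiple testing, and those of the other 5 genes span 0.

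Among the later genes the estimates for Camp, Ngp and Chil3 were the lowest. The intervals of Ltf and S100a9 overlapped those of all of them, while that of S100a8 overlapped only that of Ngp, and narrowly. Camp, the only cathelicidin gene of the mouse, read 7.71, 8.43 and 7.34 on the VPA arrays, against 8.97, 8.72 and 9.89 on the control arrays. VPA replicate 2 and control replicate 2 were the closest pair, and the groups did not overlap. The change was -1.37 ± 0.38, 2.58-fold lower (95% interval -2.24 to -0.49, adjusted p = 0.119). Ngp, a secreted protein of the cystatin family, read 6.51, 6.80 and 5.67 with VPA, against 8.06, 6.90 and 8.03 in control. Control replicate 2 was barely above VPA replicate 2, so the separation of the groups for Ngp rests on a narrow gap. Its change was -1.34 ± 0.40, 2.52-fold lower (95% interval -2.26 to -0.41, adjusted p = 0.145).

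Chil3 read 7.40, 7.93 and 7.62 with VPA, against 9.38, 8.33 and 9.30 in control, by its brightest probe. Its change of -1.36 ± 0.30, 2.56-fold lower, had the lowest adjusted p of the 10 genes, 0.0616, and an interval of -2.06 to -0.65. A second Chil3 probe read 6.53, 8.03 and 7.37 with VPA, against 9.36, 8.16 and 9.27 in control, a change of -1.62 ± 0.44 (adjusted p = 0.119). Both probes placed the groups apart in the same direction. The third, near background, read 4.66 to 5.02 with VPA and 4.93 to 5.79 in control. Chil3 has a closely related copy, Chil4, and whether these probes tell them apart was not tested. Without VPA replicate 1 the changes were -1.31 for Camp (adjusted p = 0.108), -1.43 for Ngp (0.0970) and -1.23 for Chil3 (0.0593).

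Ltf, the iron-binding protein that marks specific granules, read 9.69, 9.62 and 8.26 on the VPA arrays, against 9.44, 9.21 and 10.28 on the control arrays. Only VPA replicate 3 was below the controls. The change was -0.45 ± 0.44 (95% interval -1.48 to 0.57, adjusted p = 0.619), an interval that holds the estimates for Camp and Ngp. The Ltf change was 0.01 without VPA replicate 3 and -0.70 without VPA replicate 1. Its second probe, near background, read 4.80 to 5.56 with VPA and 5.07 to 6.17 in control.

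S100a8 and S100a9 encode the subunits of calprotectin, which binds zinc and manganese away from microbes. S100a8 read 14.28, 14.61 and 13.79 with VPA, against 14.08, 13.56 and 14.38 in control, with VPA replicate 2 above every control array and control replicate 2 below every VPA array. The groups overlapped otherwise. Its change was 0.22 ± 0.28 (95% interval -0.44 to 0.88, adjusted p = 0.710), the only one of the 10 above 0, and was -0.01 with median scaling of the arrays and 0.20 without VPA replicate 1. S100a9 read 11.87, 13.63 and 12.81 with VPA, against 13.06, 12.47 and 13.26 in control. VPA replicate 1 set its low end and VPA replicate 2 its high end. The change was -0.16 ± 0.43 (95% interval -1.17 to 0.85, adjusted p = 0.864), and 0.29 without VPA replicate 1. On the dim array S100a9 was thus low while S100a8 was not, and on the other 5 arrays the log2 ratio of S100a9 to S100a8 stayed between -1.11 and -0.98.

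Set side by side, the 4 primary genes had a median log2 change of -0.53, and the 6 later genes one of -0.89, or -1.35 over Camp, Chil3, Ltf and Ngp alone. With 1 array left out in turn the primary median was between -0.77 (without control replicate 2) and -0.28 (without VPA replicate 3), and the later one between -1.14 (without control replicate 2) and -0.58 (without control replicate 3). Without VPA replicate 1 they were -0.53 and -0.97. The later genes spread wider, from -1.37 to 0.22, than the primary genes, from -0.81 to -0.22. With each gene centred on its control mean, the primary class averaged -0.48, -0.15 and -0.93 on VPA replicates 1, 2 and 3, and 0.06, -0.35 and 0.29 on control replicates 1, 2 and 3. The later class averaged -0.83, -0.24 and -1.16 on the VPA arrays, and 0.09, -0.54 and 0.45 on the control arrays. In both classes VPA replicate 2 was above control replicate 2, so the class averages overlapped between groups. The median of the primary genes less that of the later genes was 0.37, and 0.21 (without control replicate 3) to 0.44 (without VPA replicate 1) with 1 array left out. It was 0.05 without background correction and -0.06 on the authors' deposited log2 values, so over all 6 later genes its direction depended on the processing. With the cytosolic S100a8 and S100a9 left out of the later class it was 0.82, with 0.38 without background correction and 0.21 on the deposited values. In the main setting the mean of the primary class less that of these 4 later genes was 0.57, 0.53 and 0.72 on the VPA arrays. On the control arrays it was -0.02, 0.23 and -0.21, without overlap. These values by array were not computed in other settings, and no other sets of genes were set beside them. Camp, Chil3 and Ngp are dim, and background correction widens the log2 changes of dim probes. No test was made of the difference between the classes.

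The members shared an order of arrays within each group. Control replicate 2 was the lowest control array for 10 of 10 genes, which holds for 30.1% of all measured genes. VPA replicate 3 was the lowest VPA array for 8 of 10 genes, against 34.6% of all genes. Control replicate 3 was the highest control array for 8 genes (37.2% of all genes) and VPA replicate 2 the highest VPA array for 8 (22.1%). The spread between cultures of one treatment was therefore largely common to the granule genes. An erythroid marker, Hba-a1 of alpha globin, singled out after its values were seen, had the same low and high arrays. Of the other 5 measured erythroid genes 1, Tfrc, had the same low arrays, and 0 had both the same low and the same high arrays. Hba-a1 read 9.33, 10.20 and 6.38 on the VPA arrays, and 8.34, 6.37 and 10.49 on the control arrays, a range within each group of 3.82 and 4.13 log2 units. Of the 8 erythroid marker genes on the array 6 were measured, Gata1 and Alas2 were undetected on every array, and the summed linear signal of the list was 2610 to 4157 with VPA and 3076 to 5242 in control. The part of other cells in the order of arrays was not tested.

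**Figure D3:**
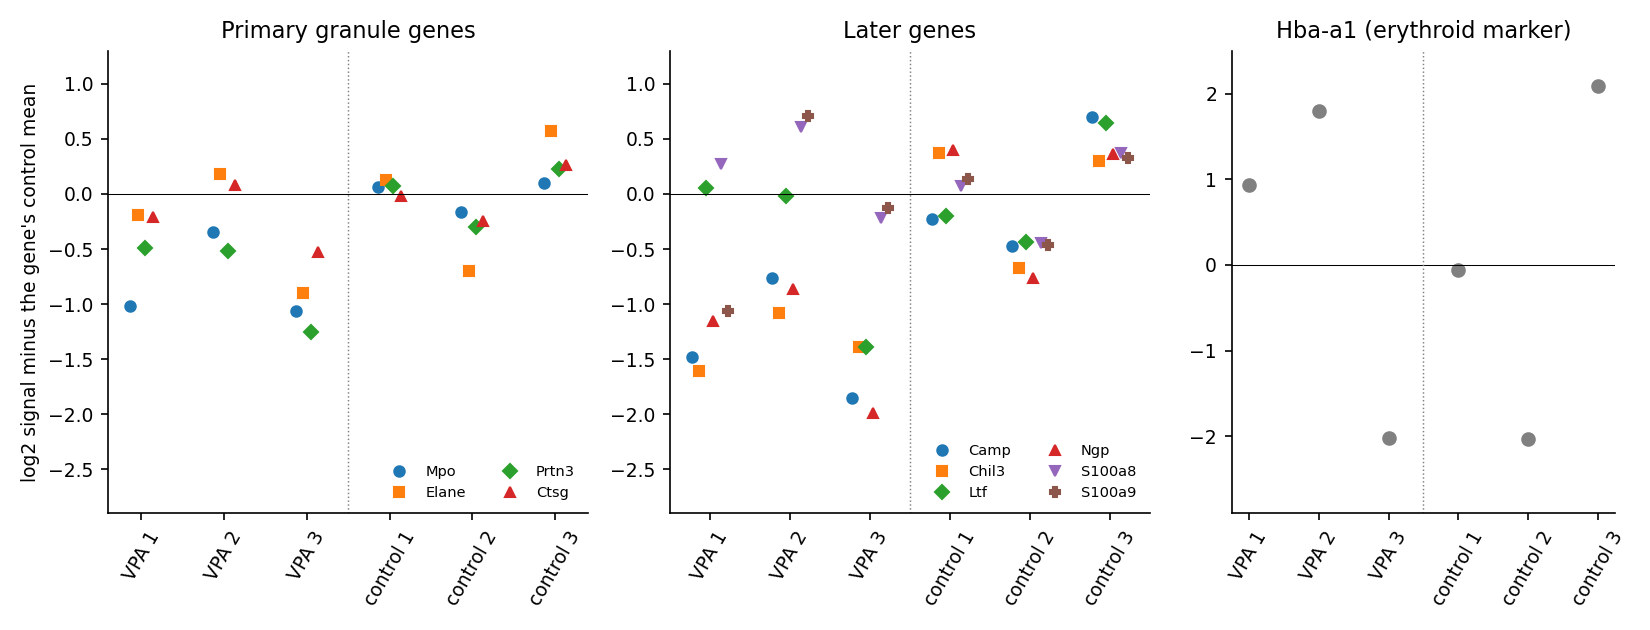
Normalized log2 signal of each gene minus its mean over the control arrays (vertical axis), for each of the 6 arrays (VPA left, control right). The left and middle panels show the primary and the later genes, and the right panel, on its own scale, Hba-a1. Control replicate 2 lies lowest among controls for all 10 genes, and VPA replicate 3 lowest among VPA arrays for 8 of them.

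Since S100a8 varied between cultures along with the rest, each gene was also set against it within an array, a ratio chosen after the values were seen. The log2 ratio of Camp to S100a8 was -6.56, -6.18 and -6.45 on the VPA arrays, against -5.11, -4.84 and -4.48 on the control arrays. The gap between groups was wider than the range within either. For Mpo the ratio was -1.09, -0.76 and -0.65 with VPA, against 0.19, 0.48 and -0.08 in control. For Ctsg, whose own signals overlapped, it was -0.89, -0.94 and -0.72 with VPA, against -0.51, -0.22 and -0.52 in control. In 7 of the 9 other genes the VPA ratios were all below the control ratios, the exceptions being Ltf and S100a9, where 3.03% of all genes had such a ratio to S100a8. The count was 7 or 8 when any 1 array was left out, without background correction, with median scaling and on the deposited values. Leaving out an array cannot lower such a count. The 3.03% belongs to the main setting, and no share of all genes was computed for these others. Against S100a9 in place of S100a8, with 0.59% of all genes, the count in the main setting was 2, Camp and Chil3. That count rests on VPA replicate 1, where S100a9 was low: without this array it was 9 of 9, where 7.46% of all genes had such a ratio to S100a9. A ratio of this kind shows unequal change within an array and not which gene moved, and S100a8 was picked as the one member with a mean above control. That choice favours lower ratios with VPA, and spread between arrays that members share with S100a8 or S100a9 partly cancels. The shares of all genes are therefore no like background for these counts, which describe the members and test nothing.

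**Figure D4:**
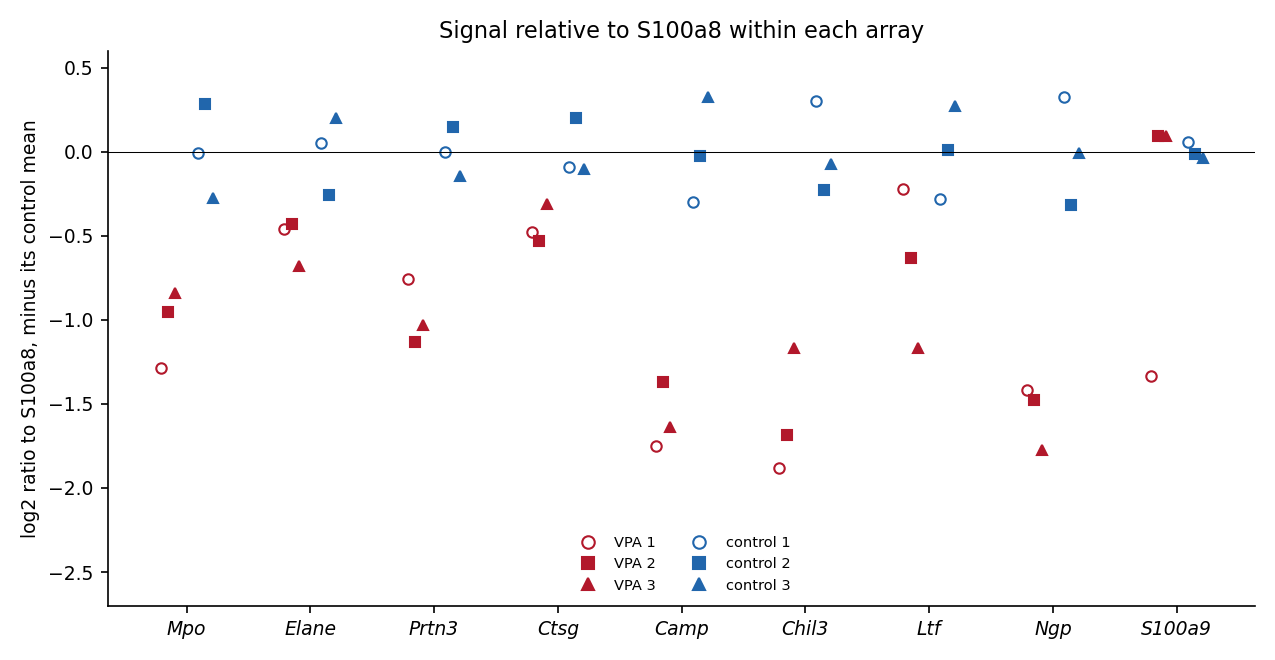
Log2 ratio of each gene to S100a8 on the same array, minus its mean over the control arrays (vertical axis), for VPA (red, left) and control (blue, right) arrays. The groups are apart for Mpo, Elane, Prtn3, Ctsg, Camp, Chil3 and Ngp and overlap for Ltf and S100a9.

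Other genes of the same granules gave no call. Of 4 measured genes of primary granules and their processing, 0 passed, 1 was lower at an unadjusted p under 0.05 and the median was -0.24. Changes were above 0 in 2 of them, Ctsc (0.37 ± 0.19, adjusted p = 0.377) and Serpinb1a (0.23 ± 0.28, adjusted p = 0.686), and below 0 in 2. Srgn, the serglycin core protein that holds proteases in granules, had a change of -1.04 ± 0.55 (adjusted p = 0.384). Its VPA values were 9.51, 11.54 and 11.80, against 12.12, 11.88 and 11.99 in control, so most of it lay on VPA replicate 1, and a second Srgn probe had -0.65 ± 0.27. Cst7, which encodes cystatin F, an inhibitor of lysosomal cysteine proteases, had -0.71 ± 0.26 (adjusted p = 0.220). Of 10 measured genes of later granules 0 passed, 1 was lower at an unadjusted p under 0.05, and 5 had changes above 0 and 5 below, with a median of -0.12. Hp, haptoglobin, had the largest difference, -1.14 ± 0.59 (adjusted p = 0.380), with -0.55 ± 0.30 by a second Hp probe, and Lcn2, the iron-siderophore binder lipocalin 2, had -0.91 ± 0.43 (adjusted p = 0.335). Lcn2 read 8.78, 9.11 and 7.58 with VPA, against 9.44, 8.85 and 9.90 in control, again with control replicate 2 and VPA replicate 3 lowest. Mmp8, Cybb, Itgam, Olfm4 and Padi4 of this list, and Bpi of the primary list, were undetected on every array.

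Of 12 measured regulators and receptors of the granulocyte line, Csf2rb2 passed upward and 0 downward, and the median was -0.04. At an unadjusted p under 0.05, 3 were higher and 2 lower, against 11.5% and 5.59% of all genes. Among these were Klf5 (0.53 ± 0.17, adjusted p = 0.172) and Irf8, the lowest estimate of the list (-1.08 ± 0.37, adjusted p = 0.200). Csf2rb2 encodes the beta chain of the mouse interleukin 3 receptor, close in sequence to Csf2rb, and read 8.11, 8.25 and 8.02 with VPA, against 6.54, 7.09 and 7.16 in control. Its change was 1.19 ± 0.20, 2.29-fold higher (adjusted p = 0.0229), where 3.41% of all genes rose. The transcription factors of the granule genes had changes of -0.03 ± 0.15 for Spi1, 0.13 ± 0.19 for Myb, -0.07 ± 0.45 for Cebpe and 0.49 ± 0.17 for Runx1, the last at an adjusted p of 0.208. The interval was -0.39 to 0.32 for Spi1, and -1.11 to 0.97, a wide one, for Cebpe. The part of these factors in the granule gene values was not tested. Cebpa was detected on 2 arrays and was not tested. Csf3r, the receptor of granulocyte colony-stimulating factor, read 8.92, 9.02 and 8.88 with VPA, against 9.37, 9.39 and 9.28 in control, a small difference (-0.41 ± 0.14, adjusted p = 0.188) in which the groups did not overlap. By this probe Csf3r varied little between cultures of a group, and a second Csf3r probe had a change of -0.87 ± 0.31 (adjusted p = 0.208).

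**Figure D5:**
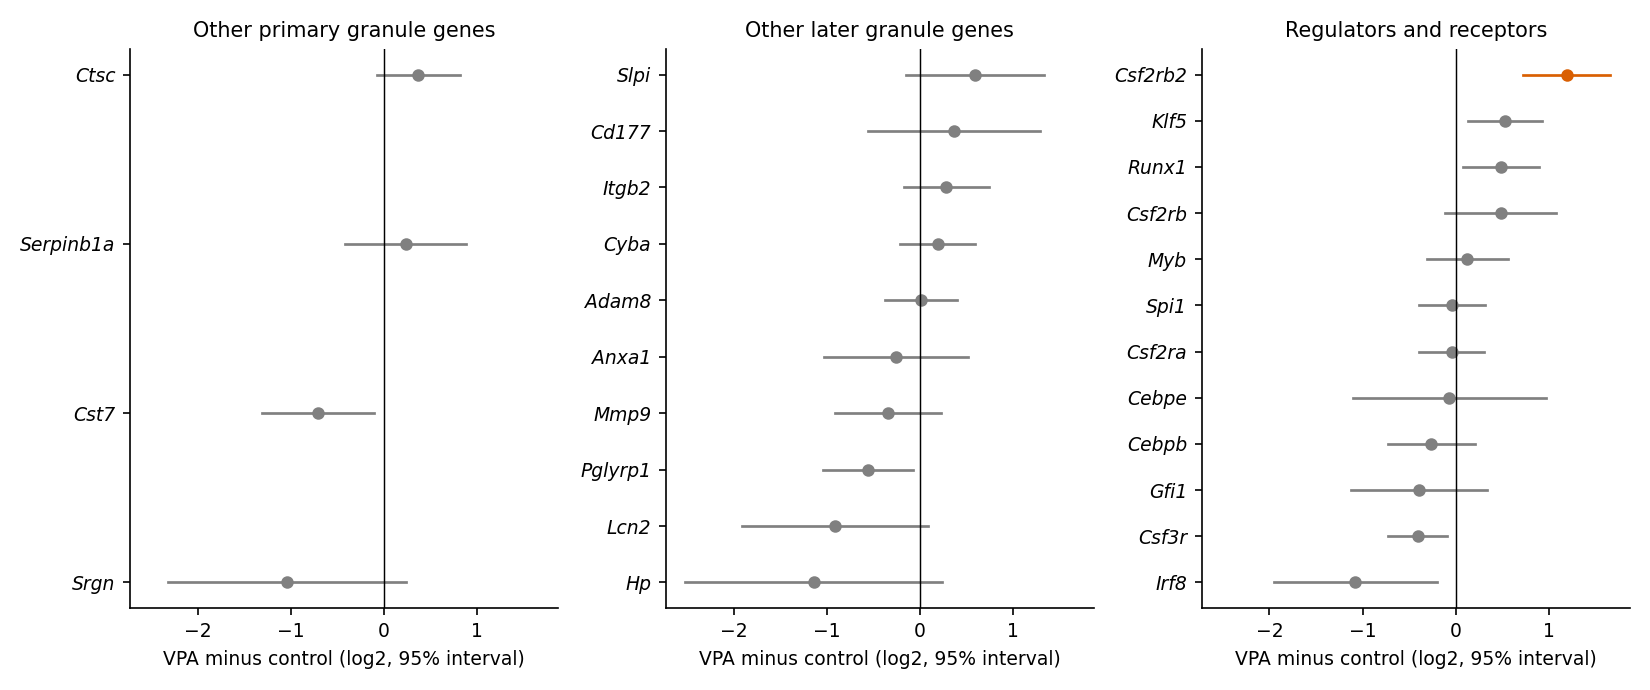
Log2 change, VPA minus control (horizontal axis), with 95% intervals, of the measured genes of 3 further lists, ordered by size. Csf2rb2 (orange) is the one gene past an adjusted p of 0.05. Hp, Lcn2 and Srgn have the lowest estimates of the granule genes and intervals that reach above 0.

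The genes nearest in pattern were sought among 7829 named genes by the root mean square distance between centred log2 profiles over the 6 arrays. Nearest to the mean primary profile were Cst7 (distance 0.12), Ms4a3 (0.13), Lgals3 (0.13), Trem3 (0.14) and Fpr2 (0.14). The primary members themselves lay 0.16 to 0.23 from that mean. Nearest to the mean later profile were Ubash3a (0.08), Cst7 (0.19), Ms4a3 (0.20), Fcgr3 (0.21) and Gfi1 (0.21), and the later members lay 0.36 to 0.50 from it. Ubash3a read 6.01, 6.51 and 5.64 with VPA, against 7.04, 6.40 and 7.40 in control, and did not pass (adjusted p = 0.203). Gfi1 encodes a repressor needed for neutrophil maturation, and its change was -0.39 ± 0.31 (adjusted p = 0.547).

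Markers of other cell types were read beside these values. The 9 genes of mature neutrophils had a summed linear signal of 2142 to 2683 with VPA and 3268 to 3442 in control. This sum rests mainly on Cxcr4, Clec4d and Csf3r, with control means of 10.54, 10.09 and 9.35, and 4 of the 9 genes were undetected on every array. Of 5 measured genes 0 passed, with changes of -0.71 for Stfa1 and -0.58 for Cxcr4. Of 7 measured monocyte and macrophage genes Mrc1, the mannose receptor, fell (-1.66 ± 0.25, adjusted p = 0.0166), and the list's summed signal was 6105 to 6778 with VPA and 5875 to 7229 in control. Of 5 measured mast cell and basophil genes Cpa3 fell (-1.54 ± 0.19, adjusted p = 0.00681), with sums of 714 to 1219 with VPA and 752 to 1033 in control. Before adjustment 2 genes of that list passed 0.05 upward, Hdc (1.28 ± 0.51, adjusted p = 0.263) and Prss34 (0.97 ± 0.29, adjusted p = 0.148), and 2 downward, Cpa3 and Fcer1a. Dntt and Il7r were the lymphoid genes that fell, of 4 measured, Il7r being detected on 0 and Dntt on 1 of 3 VPA arrays and both on 3 of 3 control arrays. Both thus entered the fit through the control group, and sums were 739 to 852 with VPA and 1090 to 1337 in control. No gene of the eosinophil, megakaryocyte or stem and progenitor lists passed by limma. At an unadjusted p under 0.05, 0, 0 and 1 of their genes were lower and 0 higher. These lists included Epx (-0.43 ± 0.30) and Il5ra (-0.05 ± 0.16) of eosinophils, and Treml1 (-0.42 ± 0.30) and Pf4 (-0.22 ± 0.38) of megakaryocytes. Of stem and progenitor cells, Procr had -0.72 ± 0.23 and Cd48 -0.55 ± 0.29. Procr, the 1 gene counted as lower, entered the fit through the control group, being detected on 0 of 3 VPA and 3 of 3 control arrays. Epor was the one erythroid gene that rose (adjusted p = 0.0299), and it entered the fit through the VPA group, being detected on 3 of 3 VPA and 0 of 3 control arrays. The part of these cell types in the granule gene values was not tested.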

How the data were processed

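Total RNA of 6 cultures was labelled with biotin and hybridised to 1 single-colour Illumina array each. Per the file headers, the deposited table holds the raw mean signal intensity of each probe and its detection p-value, set against negative control beads. GenomeStudio is named without a version in the submitters' processing notes. A second deposited table holds the authors' log2 values of the same arrays. Its column medians are all 6.94 to 2 decimals, its ranks follow the raw signals, and how low signals were treated is not given in the sources used here. It was used as an alternative.

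Raw signals were processed with neqc of limma 3.58.1 in R 4.3.3 (normexp background correction with negative controls inferred from the detection p-values, offset 16, quantile normalization, log2). Probes entered the fit when detected (p under 0.05) on 3 or more arrays, and these 11115 were fitted with lmFit and eBayes, with Benjamini-Hochberg adjustment over all of them. The procedure was tested on simulated data. Gene symbols come from GEO's platform annotation, which names 1 gene for 23978 probes and none for 1719, and 0 symbols changed when looked up by Entrez identifier in RefSeq. Each gene is represented by its brightest probe, averaged over all arrays. A summed linear signal adds, over the genes of a list, the normalized signal less the offset of the brightest probe.

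The members, gene lists, rules and alternatives were chosen with earlier results of these data known. All members are named, and from each further list up to 4 genes that passed, or where none did the 2 that changed most, together with the 5 genes nearest in profile to each class. Other genes were named after their values were seen. The precision is limited by 3 arrays per group, and an exact two-sided permutation test of 1 gene cannot go below 0.1, the value it gave for Mpo, Prtn3, Camp, Chil3 and Ngp. Sca-1 and Kit are not reported here.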

Additional observations from a re-analysis of the deposited data

How the results depend on the processing

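No result about the granule genes rests on a call, since 0 of 13 probes passed by limma. Each of the 10 genes was refitted in 17 alternatives. The log2 change stayed below 0 in all of them for Camp (-1.70 to -0.75), Chil3 (-1.69 to -0.91), Ngp (-1.72 to -0.61), Mpo (-1.04 to -0.36) and Prtn3 (-0.996 to -0.51). The direction turned for S100a9 without VPA replicate 1 (0.29, and 0.29 when it was dropped before normalization as well, or 0.35 with array weights and without it), without control replicate 3 (0.004) and with array weights (0.71). It turned for S100a8 with median scaling (-0.0091, where the median of all probes was -0.32) and without control replicate 2 (-0.0023), for Ltf without VPA replicate 3 (0.014), and for Elane (0.22) and Ctsg (0.084) with array weights. With 1 array left out in turn the range was -0.59 to 0.29 for S100a9, -0.0023 to 0.44 for S100a8 and -0.70 to 0.014 for Ltf. Genes with groups apart numbered 5 in every alternative. Alternatives that change only the filter or the fit could not alter this count, and leaving out 1 array could not lower it. It was free to fall only where the normalization differed. The share of all genes with groups apart was computed for the main setting only.

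Member probes passing numbered 1 with an offset of 50 (Chil3), 2 with a trended and robust variance (Mpo and Chil3), 2 without VPA replicate 1 in the fit and the normalization (Mpo) and 2 with array weights and without that array. Leaving out 1 array gave 0 to 2. Array weights gave 7, with 3588 of all probes, and medians of -0.14 for the primary and -0.39 for the later genes. Their estimation did not converge and gave VPA replicate 2 a weight of 12.96 and VPA replicate 1 one of 0.09, so that the VPA group is nearly 1 array. Over all probes 372 passed, against 171 with median scaling, 659 without VPA replicate 1 in the fit and the normalization, 872 with array weights and without it, and 72 to 842 with 1 array left out. The primary less the later median was 0.049 without background correction, -0.061 on the deposited log2 values and 0.82 without S100a8 and S100a9 among the later genes. With the replicate block 237 probes passed, 1 of them a member probe (Mpo). Deviations of same-numbered arrays from their group means correlated at 0.13, -0.06 and 0.05 across probes. Those of differently numbered arrays correlated at -0.11 to 0.15. The labels do not say that equal numbers are paired, and with 3 arrays per group these correlations cannot settle it.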
